A study of Mus musculus with 10 samples.

Results

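The 4 class III POU genes of the mouse, Pou3f1, Pou3f2, Pou3f3 and Pou3f4, and Pantr1, the noncoding neighbour of Pou3f3, were followed in RNA-seq counts from the dorsal telencephalon, the embryonic tissue that gives rise to the cerebral cortex. These 5 genes were taken by name from the 43629 gene identifiers of the count tables, and all 5 had enough counts to be tested. The 10 samples were taken from C57BL/6 embryos at E14.5. The 5 controls were Dot1l-cKO f/+, with 1 floxed Dot1l allele and no Cre. The 5 Dot1l-cKO samples were Dot1l-cKO f/f, with both Dot1l alleles floxed and 1 copy of a Cre allele. Since no control carried the Cre allele, its own effects and those of the loss of Dot1l cannot be told apart in this design. The comparison asks which transcripts of this gene family change in the dorsal telencephalon when Dot1l, which encodes a methyltransferase of histone H3 lysine 79, is deleted there.

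POU factors are transcription factors that bind DNA through a POU-specific domain joined to a POU homeodomain, and many of them recognise octamer-like sequences. The class III members, also called Oct6 (Pou3f1), Brn2 (Pou3f2), Brn1 (Pou3f3) and Brn4 (Pou3f4), are expressed in the developing nervous system. In the cortex Pou3f2 and Pou3f3 overlap in function, and their joint loss impairs progenitor proliferation, upper-layer neuron production and neuronal migration. Pantr1 is a long noncoding RNA transcribed away from Pou3f3, and Pou3f4 is known from the developing striatum and the inner ear.

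By GENCODE on GRCm38, Pou3f3 (ENSMUSG00000045515) lies on the plus strand of chromosome 1 from 42695768 to 42703176, and Pantr1 (ENSMUSG00000060424) on the minus strand from 42590782 to 42694842. Their starts face away from each other and are 926 bases apart. Pou3f1 (ENSMUSG00000090125) lies on the plus strand of chromosome 4 from 124656807 to 124660655, and Pou3f2 (ENSMUSG00000095139) on the minus strand of the same chromosome from 22482780 to 22488366. Pou3f4 (ENSMUSG00000056854) lies on the plus strand of the X chromosome from 110814280 to 110817207. Each Pou3f gene has a single exon, while the exons of Pantr1 merge into 10 and are spliced. Reads were counted by strand, so those of Pou3f3 and of Pantr1 were counted apart.

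RefSeq promoter windows of GRCm38.p6, 250 bases before to 50 bases after the start, were given for 3 of the 5 genes, Pou3f2, Pou3f3 and Pou3f4. The 250 bases before the start are shown for Pou3f3, whose window falls inside the interval that separates it from Pantr1, and for Pou3f2, its closest partner in function. Each is written 5′ to 3′ on the strand of its gene, from chr1:42695518-42695767 for Pou3f3 (plus strand) and from chr4:22488367-22488616 for Pou3f2 (minus strand). Capitals mark CCAAT, the CCAAT box, which was searched on both strands as CCAAT or ATTGG and was chosen after the sequences had been read.
Pou3f3: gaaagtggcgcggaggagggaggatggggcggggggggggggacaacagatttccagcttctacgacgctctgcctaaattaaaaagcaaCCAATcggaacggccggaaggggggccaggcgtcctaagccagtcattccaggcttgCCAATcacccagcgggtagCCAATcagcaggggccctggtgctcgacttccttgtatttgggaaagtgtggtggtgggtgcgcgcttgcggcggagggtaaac
Pou3f2: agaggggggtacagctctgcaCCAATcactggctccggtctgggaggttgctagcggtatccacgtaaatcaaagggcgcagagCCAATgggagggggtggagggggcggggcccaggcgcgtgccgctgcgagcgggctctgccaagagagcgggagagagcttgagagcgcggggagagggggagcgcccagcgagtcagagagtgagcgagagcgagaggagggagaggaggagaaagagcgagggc
The Pou3f3 window held 3 CCAAT matches, which began 160, 103 and 84 bases before the start. In the Pou3f2 window the 2 matches began 229 and 166 bases before the start, and the Pou3f4 window held 3. Of 32544 RefSeq promoter windows of the same length, 37.4% held at least 1 match, 11.6% at least 2 and 3.35% at least 3. The letters TATAAA, found on either strand in 13.6% of all windows, were in none of the 3, and the POU octamer ATGCAAAT, found in 1.75% of all windows, was in none of them either. All 3 windows were rich in CG dinucleotides, with 24 in Pou3f2, 18 in Pou3f3 and 15 in Pou3f4 against a median of 7 over all windows, and their GC contents were 67.7%, 60.3% and 57.7% against a median of 53%.

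Total counts per sample ranged from 54202349 to 66556034, and the members held between 779 counts, for which counting error is 3.6%, and 31793 counts, for which it is 0.56%. Levels are given as CPM, counts scaled to a TMM-adjusted library total of 1000000, and differences as log2 fold changes of Dot1l-cKO over control from edgeR's quasi-likelihood test. The headers of the authors' normalised columns open with a number whose meaning is not given in the sources used here. Replicates 2 and 3 of both groups share the number 57 and had 0.0471% to 0.492% of their counts in mitochondrial rRNA, while the other 6 samples, which carry 3 other numbers, had 5.79% to 10.9%. Member values are therefore also given within the 4 samples with number 57 and within the pool of the other 6. The targeted gene did not separate the groups: gene-level Dot1l averaged 37.3 ± 4.04 CPM among controls and 39.4 ± 11.7 CPM among Dot1l-cKO (SD over 5 samples each; log2 fold change 0.08, edgeR adjusted p = 0.864), a sum over all exons that does not single out the floxed part. Dot1l was lower in Dot1l-cKO in 1 of 5 replicate pairs, replicate 2 (41.5 against 20.1 CPM), and the log2 difference was -0.47 among the header-57 samples and 0.35 among the other 6.

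Pou3f3 and Pantr1 fell together in Dot1l-cKO, both to about the same part of their control level. Pou3f1 also fell, by a somewhat smaller amount and with a call that depended on the samples used and was lost with the replicate block. Pou3f2 and Pou3f4 did not pass the test. Of the 5 members, 3 were called decreased and 0 increased, where 7.11% of the 17039 genes tested were called, 1.44% decreased and 5.67% increased. All 5 log2 fold changes were negative, with a median of -0.55 beside -0.0056 over all genes tested.

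**Figure D1:**
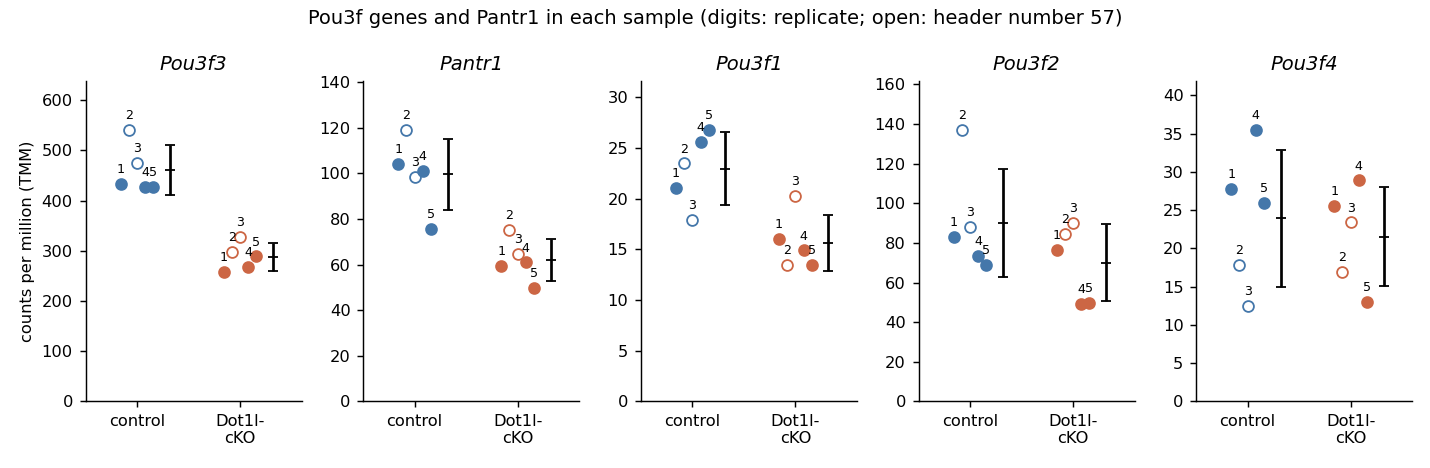
CPM of the 5 members in each sample, with 1 panel and 1 linear scale from 0 for each gene. Digits give the replicate, open circles the samples with header number 57, and bars the mean ± SD (n = 5). Control samples of Pou3f3 start at 427 CPM and Dot1l-cKO samples end at 328 CPM, while the groups overlap for Pou3f1, Pou3f2 and Pou3f4.

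Pou3f3, the most abundant of the POU genes examined, stood at 433, 541, 476, 427 and 428 CPM in the controls (replicates 1 to 5). The Dot1l-cKO samples, in the same order, stood at 258, 298, 328, 268 and 289 CPM. Every Dot1l-cKO sample lay below every control sample, and the gap between 328 and 427 CPM was wider than the SD of either group. The mean fell from 461.1 ± 49.2 to 288.2 ± 27.3 CPM (SD, n = 5 each), which is 0.625 of the control level. On the log2 scale this was a fold change of -0.68 (SE 0.0909, 95% interval -0.88 to -0.48, edgeR adjusted p = 0.0014). Without overlap, Pou3f3 was necessarily lower in Dot1l-cKO in 5 of 5 pairs of samples with the same replicate number. Taken separately, mean log2 CPM differed by -0.70 in the header-57 samples and by -0.66 in the remaining 6. In bulk tissue, fewer cells that express a gene and less of its RNA per cell cannot be told apart.

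Pantr1 measured 104, 119, 98.3, 101 and 75.5 CPM in the controls, again in replicate order. Its values in Dot1l-cKO were 59.5, 75.3, 64.7, 60.9 and 49.6 CPM. The groups did not overlap, but only just, since the lowest control (replicate 5) and the highest Dot1l-cKO sample (replicate 2) were nearly level. Pantr1 and Pou3f3 were thus 2 of 5 members without overlap in this direction, as were 2.17% of all genes tested, while 6.17% did not overlap in the other direction and no member was among those. The mean fell from 99.6 ± 15.7 to 62.0 ± 9.31 CPM (SD, n = 5 each), or 0.622 of the control level. Its log2 fold change was -0.68 (SE 0.13, 95% interval -0.97 to -0.40, edgeR adjusted p = 0.00909). Since the groups did not overlap, Pantr1 was necessarily lower in 5 of 5 replicate pairs. Its log2 difference was -0.63 among the header-57 samples and -0.71 among the rest.

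The ratio of both transcripts did not separate the genotypes. Pou3f3 had 4.17, 4.54, 4.84, 4.22 and 5.67 counts for each Pantr1 count in the controls. In the Dot1l-cKO samples the same ratio was 4.34, 3.95, 5.07, 4.39 and 5.83. In both groups the ratio was highest in replicate 5, where Pantr1 was lowest. The mean log2 ratio was 2.22 ± 0.18 in controls and 2.22 ± 0.22 in Dot1l-cKO (SD, n = 5 each), a difference of 0.00 with a 95% interval of -0.29 to 0.31 (exact two-sided permutation test, p = 0.976, adjusted over 10 ratios p = 0.976). The interval is that of the differences which the same exact test keeps. A difference of up to about 0.3 on the log2 scale in either direction was therefore not excluded by these samples.

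**Figure D2:**
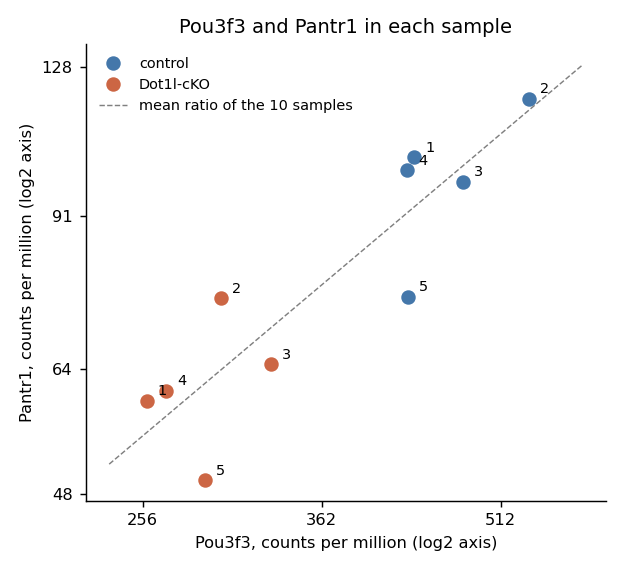
Pou3f3 against Pantr1 in each of the 10 samples, in CPM on log2 axes, with replicate numbers beside the points. The dashed line marks the mean count ratio of the 10 samples. Control samples sit at the upper right and Dot1l-cKO samples at the lower left along the same line, and replicate 5 of each group sits below it.

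Other genes around Pou3f3 were examined in a window of 250 kb on either side of its start, which holds 7 annotated genes besides Pantr1. Of these, 3 had enough counts to be tested and 0 were called by edgeR, where 7.11% of all genes tested were called. With so few genes, 0 calls does not show that the change is confined to Pou3f3 and Pantr1. Pantr2, a noncoding gene that starts 17686 bases downstream on the opposite strand, averaged 7.30 ± 1.1 CPM among controls and 5.64 ± 0.863 CPM among Dot1l-cKO (log2 fold change -0.37, SE 0.143, edgeR adjusted p = 0.161). AC122898.1, which spans the Pou3f3 locus on the same strand without sharing exon bases with it, had 1.67 ± 0.397 and 1.24 ± 0.279 CPM (-0.43, SE 0.211, edgeR adjusted p = 0.282). Mrps9, a protein-coding gene of the mitochondrial ribosome that starts 155465 bases downstream, had 33.9 ± 1.3 and 34.1 ± 2.41 CPM (log2 fold change 0.01, edgeR adjusted p = 0.954). Dalir, another noncoding gene of the locus, was below the filter.

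Pou3f1, whose product Oct6 is best known from myelinating Schwann cells and from cortical and skin cells, was among the least abundant members. The controls had 21.1, 23.5, 17.9, 25.6 and 26.8 CPM by replicate number, and the Dot1l-cKO samples 16, 13.5, 20.3, 14.9 and 13.5 CPM. The groups overlapped through replicate 3, which was the lowest control and the highest Dot1l-cKO sample. The mean fell from 23.0 ± 3.57 to 15.7 ± 2.81 CPM (SD, n = 5 each), 0.681 of the control level, with a log2 fold change of -0.55 (SE 0.14, 95% interval -0.86 to -0.25, edgeR adjusted p = 0.0357). Pou3f1 was lower in 4 of 5 replicate pairs. Its log2 difference was -0.31 among the header-57 samples and -0.72 among the remaining 6.

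The call for Pou3f1 was not firm. With the replicate number as a block its log2 fold change was -0.56 and the edgeR adjusted p was 0.0745. With single samples left out, the call was kept without control replicate 3 (edgeR adjusted p = 0.0164) and without Dot1l-cKO replicate 3 (0.0142). It was lost without control replicate 1 (edgeR adjusted p = 0.0653), 2 (0.0767), 4 (0.0907) or 5 (0.0675), and without Dot1l-cKO replicate 1 (0.0749), 2 (0.0746), 4 (0.0876) or 5 (0.0799). The log2 fold change itself stayed between -0.67 and -0.49 in these fits. Within 250 kb of the start of Pou3f1, 12 of 21 annotated genes were tested and 0 were called by edgeR. Of all genes tested 7.11% were called, so 0 of 12 does not set this region apart. Among the 12 was Gm2164, an antisense gene over the start of Pou3f1 with 0.341 ± 0.0636 and 0.426 ± 0.13 CPM.

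Pou3f2, the partner of Pou3f3 in cortical progenitors, gave 82.9, 137, 87.9, 73.6 and 68.8 CPM over the 5 controls. Over the 5 Dot1l-cKO samples it gave 76.3, 84.5, 90.1, 49.1 and 49.5 CPM. The groups overlapped widely, and the samples with header number 57 were the high ones in both groups. Their mean log2 CPM exceeded that of the other samples by 0.55 among controls and by 0.61 among Dot1l-cKO, which is more than the difference between the genotypes. Group means were 89.9 ± 27.1 and 69.9 ± 19.4 CPM (SD, n = 5 each). The log2 fold change of -0.36 (SE 0.224, edgeR adjusted p = 0.407) did not pass the test, and its 95% interval ran from -0.86 to 0.13. The difference was -0.33 with header number 57 and -0.39 in the other 6, and Pou3f2 was lower in 4 of 5 replicate pairs, replicate 3 being the exception. With the replicate block the standard error was 0.11 and the edgeR adjusted p was 0.0816, with a log2 fold change of -0.37. Of the genes within 250 kb of its start, Fbxl4 (log2 fold change 0.16, edgeR adjusted p = 0.269) and Gm37900 (-0.25, 0.747) were tested, and neither was called.

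Pou3f4, the X-linked member, varied more than the others, with 27.8, 17.9, 12.5, 35.5 and 26 CPM over the controls. Its Dot1l-cKO values were 25.6, 16.9, 23.4, 28.9 and 13 CPM. Each group covered most of the range of the other. Group means were 23.9 ± 8.96 and 21.5 ± 6.49 CPM (SD, n = 5 each), with a log2 fold change of -0.15 (SE 0.282, 95% interval -0.77 to 0.47, edgeR adjusted p = 0.813). The direction was not stable: the difference was 0.41 among the header-57 samples and -0.47 among the remaining 6, and without control replicate 4 the log2 fold change was 0.03. With the presence of Y-linked counts as a covariate, since the gene is X-linked, it was -0.23 (edgeR adjusted p = 0.693). None of the 3 other annotated genes within 250 kb of its start had enough counts to be tested.

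Markers of the neighbouring ventral telencephalon, where Pou3f4 is known to be expressed, also varied between samples. The summed level of 9 markers of the ganglionic eminences and interneurons was 55.3 to 286 CPM in controls and 5.46 to 83.4 CPM in Dot1l-cKO, and that of 10 striatal markers was 33.7 to 103 CPM and 37.5 to 64.4 CPM. Control replicate 4 had the highest sum of both lists and the highest Pou3f4 among controls, and control replicate 3 had the lowest of all 3. In Dot1l-cKO the orders agreed less: replicate 5 had the lowest Pou3f4 and the lowest ganglionic sum (5.46 CPM), but the striatal sum was lowest in replicate 2 (37.5 CPM). Replicate 4 had the highest Pou3f4 of its group, while the ganglionic sum was highest in replicate 1 (83.4 CPM) and the striatal sum in replicate 3 (64.4 CPM). The part of these other cells in the Pou3f4 level was not tested.

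**Figure D3:**
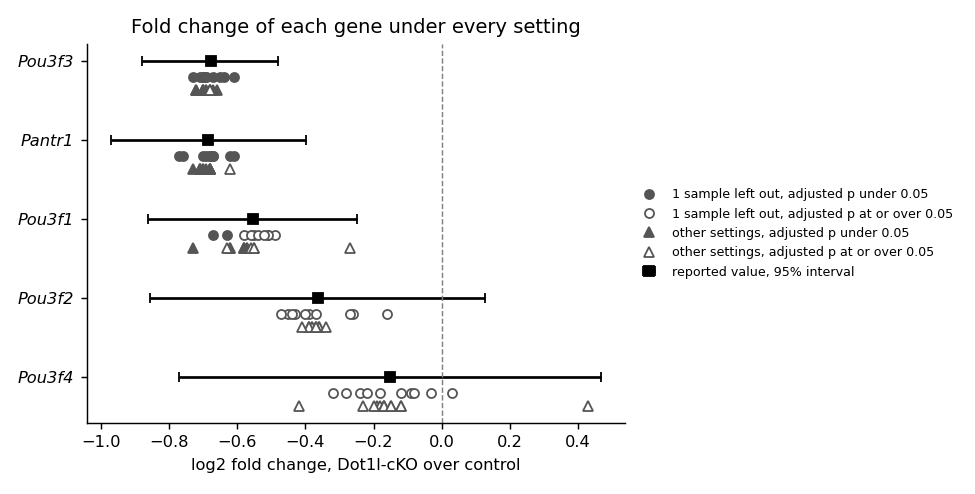
Log2 fold change of each member over the settings tried. Squares are the reported values with their 95% intervals, circles the fits with 1 sample left out and triangles the other settings, filled where the adjusted p was under 0.05. Pou3f3 and Pantr1 stay between -0.77 and -0.61, Pou3f1 loses its fill in most fits, and Pou3f4 lies on both sides of 0.

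Whether members moved by different amounts was tested for all 10 pairs by the difference in log2 ratio per sample. With 5 samples a group the exact two-sided permutation test cannot go below p = 0.0079. After adjustment over 10 pairs, no single pair could therefore pass alone, even with groups that did not overlap. After that adjustment 0 of 10 pairs passed. For Pou3f2 over Pou3f3 the log2 ratio was 0.31 higher in Dot1l-cKO (95% interval -0.18 to 0.77, exact permutation p = 0.143, adjusted p = 0.397). For Pou3f1 over Pou3f3 the difference was 0.12 (-0.28 to 0.54, adjusted exact permutation p = 0.697). For Pou3f3 over Pou3f4 it was -0.56 (-1.57 to 0.43, adjusted exact permutation p = 0.397), with -1.11 among the header-57 samples and -0.19 among the remaining 6. Paired by replicate number, the ratio of Pou3f2 to Pou3f3 was higher in Dot1l-cKO in 5 of 5 pairs, and Pou3f3 had 5.23, 3.97, 5.42, 5.8 and 6.21 counts for each Pou3f2 count in the controls against 3.39, 3.52, 3.64, 5.46 and 5.84 in Dot1l-cKO. The exact two-sided sign-flip permutation test over 5 pairs, added after seeing the data, gave p = 0.0625, the smallest it can give, and an adjusted p of 0.312 over the 10 ratios. That design cannot pass the threshold, and the intervals are wide, so Pou3f2 and Pou3f4 were not shown to behave differently from Pou3f3, nor alike.

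To compare levels between genes, counts were divided by the summed length of the exons and scaled to a common total of 1000000 per sample (TPM, a measure of transcripts). In controls Pou3f3 had 149 ± 28.8 TPM (SD, n = 5), which placed it 623rd among the genes tested. Pou3f2 followed with 39 ± 15 TPM, Pou3f4 with 19.1 ± 6.04 TPM and Pou3f1 with 14.2 ± 2.37 TPM. Pou3f4 and Pou3f1 did not differ beyond their spread, since their control samples ran from 10.8 to 27 and from 11.7 to 16.7 TPM. Pantr1 had 53.5 ± 11.2 TPM by this length, which lies between Pou3f3 and Pou3f2 and overlaps with Pou3f2, whose controls ran from 29.3 to 64.7 TPM. That place depends on the length taken for Pantr1, since with its longest transcript alone it had 96.0 ± 18.9 TPM in controls. In Dot1l-cKO the levels were 94 ± 17.7 TPM for Pou3f3, 30.4 ± 10.4 for Pou3f2, 17.5 ± 4.88 for Pou3f4, 9.83 ± 2.54 for Pou3f1 and 33.5 ± 6.79 for Pantr1, and the order of the 4 POU genes was kept.

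Summed over the 4 POU genes, controls had 222 ± 40.9 TPM and Dot1l-cKO 152 ± 29.8 TPM (SD, n = 5 each). The groups overlapped in this sum, with controls from 188 to 291 and Dot1l-cKO from 130 to 200 TPM. TPM carries no TMM adjustment, and its total includes mitochondrial rRNA, whose share differed between the header-57 samples and the rest. The part of that difference in the overlap was not tested. Pou3f3 made up 67.3 ± 2.97% of the sum in controls and 62.1 ± 4.84% in Dot1l-cKO. Pou3f2 made up 17.2 ± 3.18% and 19.7 ± 3.94%, Pou3f4 9 ± 3.7% and 11.7 ± 3.71%, and Pou3f1 6.51 ± 1.23% and 6.45 ± 0.651%. Pou3f3 therefore remained the main class III POU transcript in every sample, at no less than 56.8% of the sum.

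**Figure D4:**
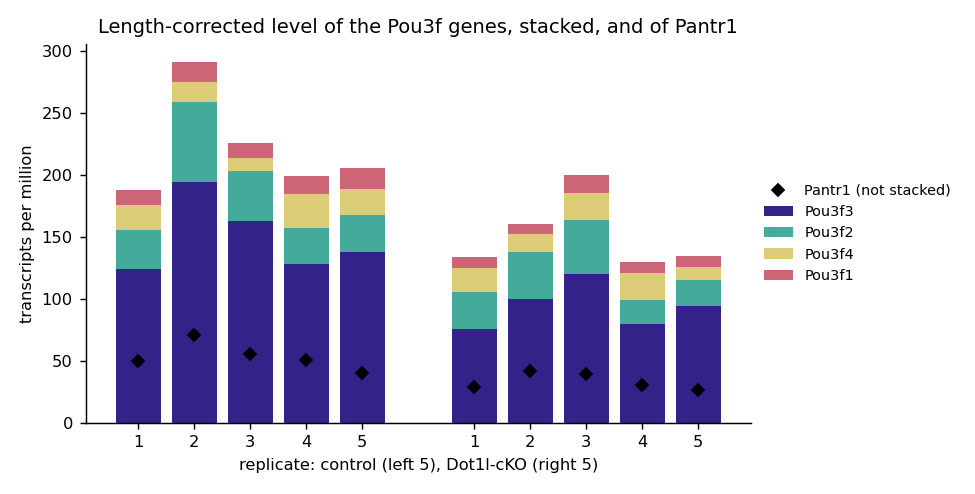
TPM of the 4 POU genes, stacked from 0, in each of the 5 control (left) and 5 Dot1l-cKO samples (right), with Pantr1 as diamonds on the same axis. Pou3f3 forms the largest part of every bar, between 124 and 194 TPM in controls and between 75.9 and 120 TPM in Dot1l-cKO.

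Over the 10 samples, the genes whose pattern was most like that of each member were found among 12754 other genes by the root mean square difference in centred log2 CPM, as a description without a test. For Pou3f3 they were Pim1 (0.102), a serine/threonine kinase, Adamtsl3 (0.117) and Golm1 (0.125), a Golgi membrane protein. For Pantr1 they were Golm1 (0.0865), Abracl (0.104) and Sinhcaf (0.106), a subunit of a SIN3 histone deacetylase complex. Golm1 was thus near both, and it fell by a log2 fold change of -0.72 (edgeR adjusted p = 0.0014). That fall adds no evidence, since the measure spans both genotypes and so picks genes with a similar change. Pantr1 was the 36th nearest gene to Pou3f3 (0.18), and Pou3f3 the 22nd nearest to Pantr1.

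The nearest patterns to Pou3f1 were those of St6gal2 (0.112), a sialyltransferase, Zfp618 (0.128) and Myt1l (0.146), a neuronal zinc finger factor. Pou3f2 was nearest to Lrch2 (0.118), Suz12 (0.123), a core subunit of the Polycomb repressive complex that methylates histone H3 lysine 27, and Stard4 (0.127), a sterol carrier. None of these 3 was called, with edgeR adjusted p of 0.668, 0.339 and 0.466. The nearest genes to Pou3f4, E130006D01Rik, Gm38070 and Dleu7, lay further off, at 0.215, 0.23 and 0.241. The measure is not scaled by spread, and log2 CPM of Pou3f4 had an SD of 0.509, against 0.369 to 0.429 for the other members. Of the other members, Pou3f1 was in place 1531 of 12754 by nearness to Pou3f4, Pantr1 in place 9578, Pou3f3 in place 10308 and Pou3f2 in place 11072.

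Other genes of the POU class, and genes linked to class III POU factors in earlier work, were listed to set the members beside them. The counts of these lists stand beside 7.11% of all genes tested that were called, 1.44% decreased and 5.67% increased. Of 10 other POU genes, 5 were tested and 0 were called by edgeR (median log2 fold change -0.20), which is near that share. Pou6f1, the most abundant of them, had 101.9 ± 16.9 and 95.8 ± 15.7 CPM, and Pou2f1, the ubiquitous Oct1, had 53.1 ± 6.18 and 41.4 ± 6.28 CPM (log2 fold change -0.36, edgeR adjusted p = 0.106). Of 4 transcription factors that act together with class III POU factors, 2 fell and 0 rose. Sox11, a SoxC factor of newborn neurons, fell from 2630 ± 236 to 1787 ± 206 CPM (log2 fold change -0.56, edgeR adjusted p = 0.00532), and its relative Sox4 fell from 1082 ± 56 to 836.1 ± 73.6 CPM (-0.37, 0.0122).

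Of 6 genes reported as targets of class III POU factors, 1 rose and 0 fell. The brain lipid-binding protein gene Fabp7 rose from 429.2 ± 29.5 to 659.8 ± 127 CPM (log2 fold change 0.62, edgeR adjusted p = 0.0122). The progenitor gene Nes (-0.16, edgeR adjusted p = 0.661), the Notch ligand Dll1 (-0.20, 0.379), the reelin adaptor Dab1 (-0.17, 0.637), and the Cdk5 activators Cdk5r1 (-0.04, 0.827) and Cdk5r2 (0.10, 0.802) did not pass. Of 9 upper-layer neuron genes, a list that the study partly chose on these samples, 3 fell and 1 rose. Cux2 (log2 fold change -1.26, edgeR adjusted p = 0.00576), Lhx2 (-1.21, 0.000119) and Cux1 (-0.34, 0.0407) fell, while Bhlhe22 rose (0.76, 0.00165). Lhx2 is also a gene of progenitors, and the study places it in the ventricular and subventricular zones rather than in the upper layers.

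Marker lists of the cells that the tissue could hold were read the same way. Of 8 radial glia genes, Fabp7, Vim and Slc1a3 rose and Pax6 fell, while 0 of 4 intermediate progenitor, 0 of 6 neuron and 0 of 6 dorsal telencephalon markers were called by edgeR. The last were well expressed, summing to 1103 to 1281 CPM in controls. Lhx6, a gene of interneurons from the medial ganglionic eminence, was the only 1 of 8 tested ganglionic markers called (log2 fold change -3.00, edgeR adjusted p = 0.00187), with a median of -1.76 over the list, and 0 of 10 striatal markers were called. Microglia markers were higher in every Dot1l-cKO sample when added up, with 25.3 to 43.4 CPM in controls and 49.9 to 73.6 CPM in Dot1l-cKO, and 5 of 6 were called increased. Among the others, Lhx9 of 5 diencephalic markers (2 tested) rose and Sox10 of 4 oligodendrocyte-lineage markers fell, and none of 6 endothelial, 5 meningeal, 5 choroid plexus or 4 erythroid markers was called. Meningeal and choroid plexus sums varied most, from 14.7 to 393 CPM and from 1.96 to 636 CPM in controls. No marker had 0 counts in all samples, and the part of these cells in the decreases of Pou3f3, Pantr1 and Pou3f1 was not tested.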

How the data were processed

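Per the labels and the study's methods, stranded libraries were made from ribosomal-RNA-depleted total RNA of dorsal telencephalon and sequenced as paired ends. The authors trimmed reads with Trim Galore 0.2.8, mapped them to mm10 with TopHat2 2.0.9 guided by Ensembl release 79, and counted them per gene with htseq-count 0.6.0 in reverse-stranded mode. The deposited values used here are raw counts per gene. The other deposited tables hold a signal, the same counts divided by DESeq2 1.6.1 size factors, and were used only for an alternative.

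Of 43629 identifiers, 42462 were matched to GENCODE symbols, and the rest held 0.156% to 0.896% of a sample's counts. Differential expression between genotypes was assessed with edgeR 4.0.16 under R 4.3.3 (filterByExpr, TMM, quasi-likelihood, no covariate) over 17039 genes, with Benjamini-Hochberg adjustment and a threshold of 0.05. Standard errors are the fold change divided by the square root of F and are approximate. Log2 CPM used a prior count of 2. Alternatives were DESeq2 1.42.0, limma 3.58.1 on log2 of the normalised values plus 1, other scalings, filters, blocks and a GC offset, and each sample left out; the samples with header number 57 alone, the others alone, a paired test of the ratios and the presence of Y-linked counts as a covariate were added after seeing the data. The tests were tried on simulated counts. Precision from counts covers counting error only.

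Groups and replicate numbers came from the titles. Replicates of a group differed by at least 30.8 in chi-square per degree of freedom, so each was counted as a separate library. The study states that each animal is an n, but the labels do not say how many embryos gave a sample, so p-values measure the spread between these samples. Deviations from the group means correlated at 0.23, 0.35, 0.15, 0.6 and 0.13 within the pairs that share a number, against a mean of -0.072 otherwise. All 5 exceed 0.1, so the numbers were taken to pair the samples. Pairs 2 and 3 share header number 57, so a correlation there need not come from the replicate number. The best matches were mixed. Controls 1 and 4 were most like the Dot1l-cKO sample of their own number. Controls 2, 3 and 5 were most like Dot1l-cKO 3, 5 and 4. Dot1l-cKO 1, 2 and 4 were most like the control of their own number, and 3 and 5 were not. The reported fits use no block, and results with the replicate block are given beside some of them. With that block Pou3f3 and Pantr1 stayed called (edgeR adjusted p = 0.00258 and 0.00135).

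Named genes are the members, Dot1l, genes with a start within 250 kb of a member's, up to 4 called genes with the largest change of each list, and the 3 genes most like each member, taken from genes whose mean log2 CPM was 1 or more. Other list genes named were chosen after their values were seen. The members and lists were chosen with earlier results of these data known. Some genes that this naming rule or the lists include are not reported here.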

Additional observations from a re-analysis of the deposited data

How the results depend on the processing

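Across 10 fits with 1 sample left out, Pou3f3 ranged from -0.73 to -0.61 and Pantr1 from -0.77 to -0.61, with edgeR adjusted p of 0.00239 to 0.00545 and 0.00351 to 0.0296, so both calls were kept in all 10. Pou3f1 ranged from -0.67 to -0.49 and was called in 2 of them, Pou3f2 from -0.47 to -0.16 and Pou3f4 from -0.32 to 0.03, neither called in any. The log2 ratio of Pou3f3 to Pantr1 ranged from -0.08 to 0.08 around 0.00. With the replicate pairing, 0 of 10 ratios passed the exact sign-flip permutation test. Over 5 pairs that test cannot pass the threshold, so its result does not show whether the ratios depend on the pairing. Genes called ranged from 750 to 1357 (624 to 1076 increased, 126 to 343 decreased); decreased genes moved by over 1.5 times without control replicate 1 (126), 2 (134) or 4 (136) and without Dot1l-cKO replicate 1 (149), 3 (157) or 4 (144), and called genes without control replicate 1 (750) or 4 (779).

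Beside 246 decreased and 966 increased genes, DESeq2 called 2019 genes, 667 decreased and 1352 increased. The replicate block gave 495 decreased and 1109 increased, the header-number block 597 and 1221, the GC offset 407 and 977, and the block with the GC offset 710 and 1116 (1826 in all). These blocked fits ended the call of Pou3f1 (log2 fold change -0.56, -0.55 and -0.63; edgeR adjusted p = 0.0745, 0.0603 and 0.0533) and of no other member. Pou3f3 and Pantr1 were called in 12 of 13 settings other than leaving out a sample, and Pou3f1 in 9.

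The exception was the 4 samples with header number 57, 2 against 2, where edgeR called 1 gene, increased, and 0 decreased, although 2434 of 17202 genes had an unadjusted p under 0.05. There Pou3f3 was -0.68 (edgeR adjusted p = 0.141), Pantr1 -0.62 (0.189), Pou3f1 -0.27 (0.616) and Pou3f4 0.43 (0.46), the last with its sign turned. The other 6 samples gave 745 calls, 590 increased and 155 decreased. With the longest transcript as length, Pantr1 had 96.0 TPM in controls and 60.2 TPM in Dot1l-cKO; the shares of the POU genes did not move. Where a count or call moved, the cause was not tested, beyond the fewer samples in the fits on part of the samples.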
